A study of Mus musculus with 6 samples.

Results

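The genes whose symbols begin with Il and a digit encode interleukins, their receptor chains and a few proteins named after them, and their promoters were followed here in mouse mTECs, medullary epithelial cells of the thymus, that carry MHC class II at a high level. The symbol alone chose them, with pseudogene symbols and 1 further symbol left out. Of 27095 gene windows 84 met the rule: 37 for secreted ligands and antagonists, 41 for receptor chains and 6 for other products. Chromatin accessibility was measured by ATAC-seq, in which the transposase Tn5 inserts sequencing adapters into open DNA, in 3 libraries from Kat7 knockout mice and 3 from wildtype mice, each a biological replicate on the C57BL/6 strain. KAT7 is a histone acetyltransferase. The sources used here give neither the cell type in which the deletion was driven, nor the deleted stretch of Kat7, nor the age of the mice, and no agent or further allele is named for either group.

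Interleukins are small secreted proteins through which leukocytes and epithelial cells signal to each other. Most act through receptors without enzyme activity that bind Janus kinases and, through them, the STAT transcription factors, whereas receptors of the IL-1 and IL-17 families recruit adaptor proteins that lead to NF-kB. In the thymus, IL-7 and IL-15 from epithelial cells support developing T cells and innate lymphocytes, IL-4 and IL-13 act on epithelial cells, and mTECs also transcribe many genes of other tissues at low levels as self-antigens.

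Each library held 15482439 to 19740835 counts in the knockout group and 15494911 to 19832326 counts in the wildtype group. Levels are given as CPM, counts scaled by the totals and TMM factors of the libraries. A total of 3 counts, the limit that a count of 0 allows, equalled 0.154 to 0.192 CPM, which covers counting error only. The Kat7 window (chr11:95308246-95313246, mm10) held 11.9, 13.2 and 38.3 CPM in knockout libraries 1 to 3, against 291, 238 and 272 CPM in wildtype libraries 1 to 3 (log2 fold change -3.66, SE 0.574, adjusted p = 0.0143). Loss of the DNA itself and loss of its accessibility cannot be told apart there. Knockout library 1 had the lowest TMM factor, 0.884, against 0.984 to 1.06 in the other 5 libraries. Of 14 mTEC markers, such as Aire and Cd80, 1 was lower (Ctss), 1 was higher (Krt5) and none was at 0 in all libraries, with summed levels of 2136 to 2590 CPM in knockout and 2335 to 2392 CPM in wildtype libraries. Most of these markers lay in the quartile of most open windows, of which 3.72% were lower and 9.32% higher.

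A full window spans 3000 bases before and 2000 bases after the start of a gene. Of the 84 windows, 81 had the full 5001 bases, and in 76 the RefSeq gene start lay inside the window. The windows of Il1rl1, Il19, Il9r, Il2rb, Il11, Il16, Il18 and Il13ra2 were placed elsewhere than at that start. Counted from the first base of the window on the gene's strand, the start stood at -31785 bases for Il1rl1 and -13555 for Il2rb. It stood at -3216 for Il19, -2004 for Il9r and -1766 for Il11. RefSeq also annotates another start inside the windows of Il1rl1, Il19, Il9r, Il11 and Il16. None was matched inside those of Il2rb, Il18 and Il13ra2. Bases that belong to the windows of 2 genes seem to carry no counts in either, which touched 14 members, 8 of them over most of their length. Il4i1b, with 99.0% of its window shared, was the single member below the filter on low counts, so 83 were tested.

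Interleukin and receptor promoters were more often less open than more open in the knockout. Of 83 tested windows, 32 were lower and 4 higher at an adjusted p of at most 0.05 (edgeR's quasi-likelihood test with Benjamini-Hochberg adjustment over all 24817 tested windows), and 47 did not pass. The members called lower were 38.6% and those called higher 4.82% of the tested members, against 20.2% lower and 6.36% higher among all tested windows. The median log2 fold change was -0.18 over the members and 0.04 over all tested windows. By group of product, 14 of 37 ligand windows were lower and 2 higher (median -0.18), and 17 of 41 receptor windows were lower and 2 higher (median -0.25). Of the 83 tested members, the 3 knockout libraries were all below the 3 wildtype libraries in 36 and all above them in 9. Over all 24817 tested windows this held for 6114 (24.6%) and 3355 (13.5%). Among the same 83 members, 8 were called lower by at least 2-fold (Il33, Il2, Il19, Il2rb, Il11, Il20ra, Il9r and Il22), and none was called higher by as much. Of all 24817 tested windows, 1807 (7.28%) were called lower and 220 (0.886%) higher by at least 2-fold. The windows of Il19, Il2rb, Il11 and Il9r do not hold the RefSeq gene start, as given above, though those of Il19, Il11 and Il9r hold another annotated start. In bulk cells, fewer cells of a kind and a less open promoter per cell cannot be told apart.

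The count depended on how the libraries were set against each other. After loess normalisation, which removes differences that follow the level of a window, 26 members were lower and 12 higher, so that 31.6% of the members' calls were higher, against 11.1% under TMM factors. Over all tested windows the same change of scaling gave 46.8% of calls higher with loess, against 24.0% under TMM factors. The sign of Il36g, Il4, Il7, Il2rg, Il12b, Il12rb1 and Il31ra, called lower with TMM factors, turned with loess, to log2 fold changes of 0.02 to 0.06, and 8 further falls lost the call (Il1rl1, Il36a, Il36rn, Il1f10, Il12a, Il22ra1, Il17re and Il27ra). Loess also called members lower that did not pass with TMM factors, among them Il4ra (log2 fold change -0.15, adjusted p = 0.0246) and Il23a (log2 fold change -0.23, adjusted p = 0.001). Without knockout library 2, 21 members were lower, and without wildtype library 2, 9 members were higher. Over all 16 alternatives, 12 members were lower each time (Il33, Il2, Il19, Il2rb, Il11, Il20ra, Il9r, Il22, Il12rb2, Il21r, Il10ra and Il17rd) and 3 higher each time (Il10, Il1rl2 and Il17b).

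**Figure D1:**
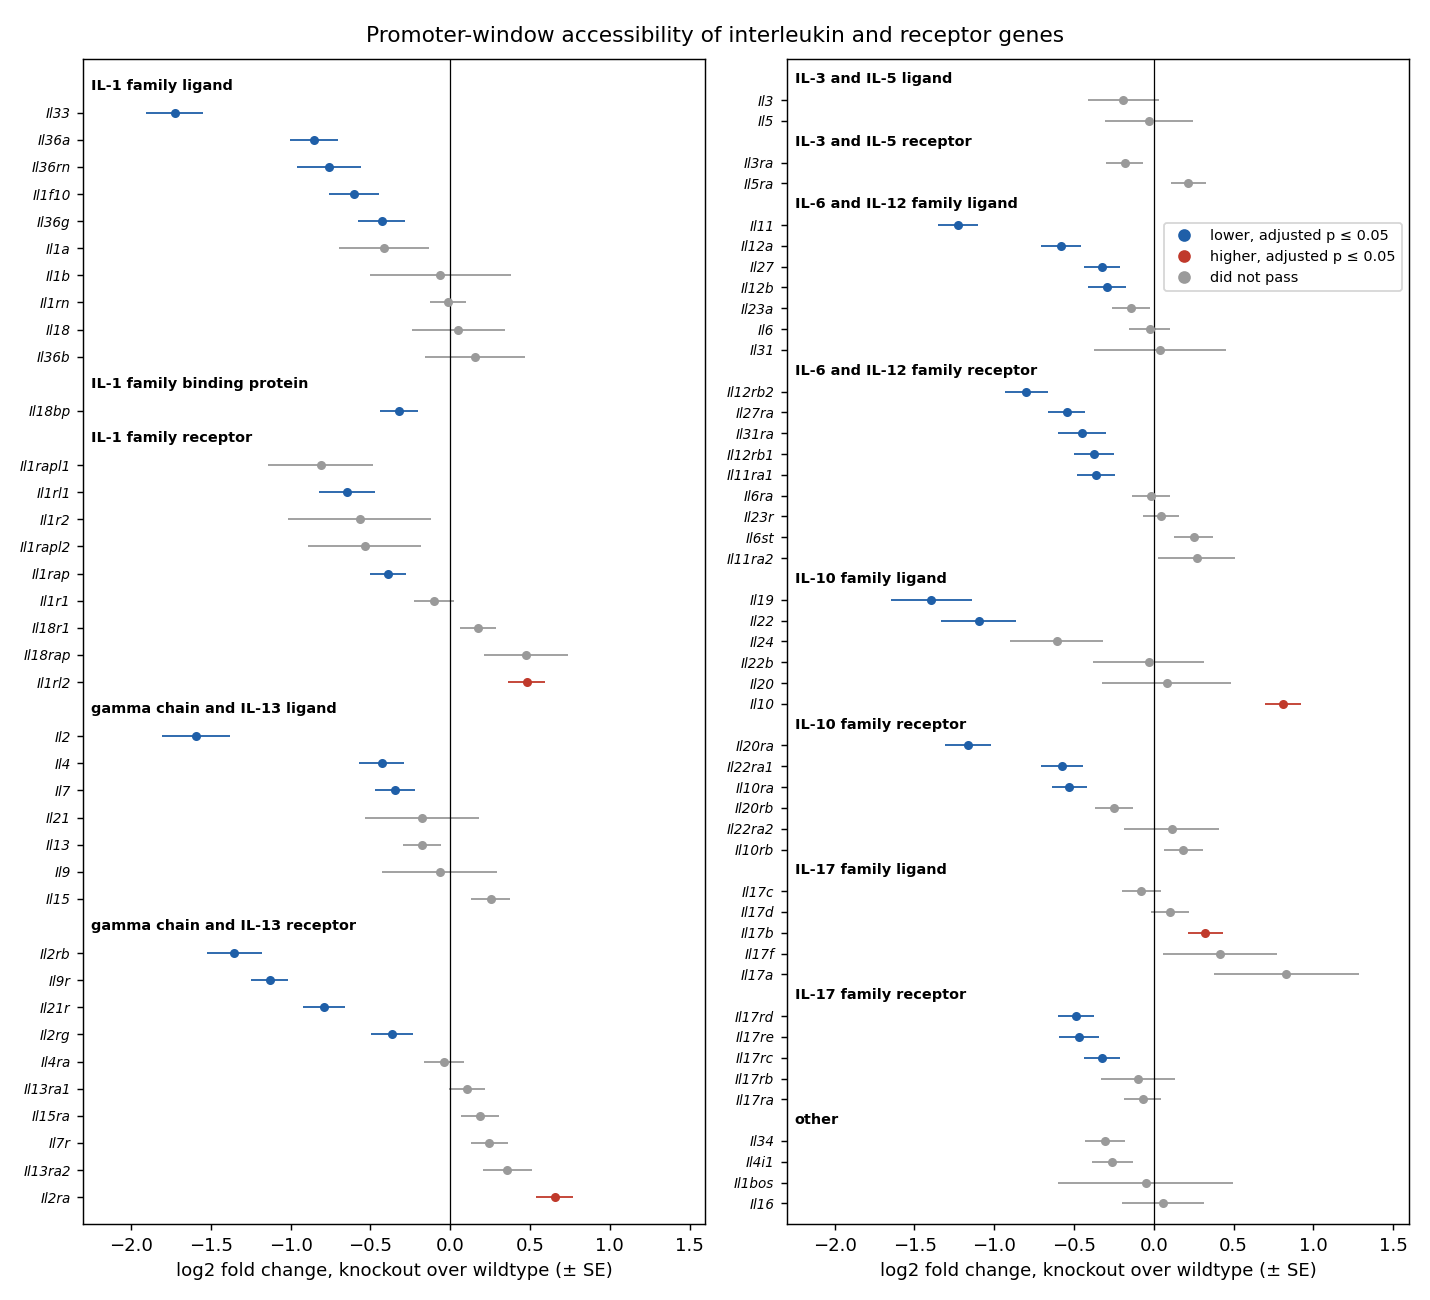
Log2 fold change in promoter-window accessibility, knockout over wildtype (x axis, ± SE, 3 libraries per group), for each of the 83 tested interleukin, receptor and related genes, grouped by family and role. Blue points were lower (32), red points higher (4) and grey points did not pass (47); Il33, Il2 and Il19 lie farthest to the left.

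The share of windows called differed with their level. With all tested windows split into quartiles of mean accessibility, 0 of 6 members in the least open quartile were lower (the lowest unadjusted p was 0.0675, for Il17a), against 1.35% of all windows there, where counts are few. In the second quartile 9 of 27 members were lower, against 32.5% of all windows, and in the third 19 of 29, against 43.2%. In the most open quartile 4 of 21 members were lower (Il18bp, Il27, Il11ra1 and Il17rc), against 3.72%. None of these 4 passed in edgeR with DESeq2 size factors (adjusted p = 0.0759 to 0.142) or without knockout library 2 (0.083 to 0.256). Members called higher numbered 3 in the third quartile (9.28% of all windows) and 1, Il1rl2, in the most open (9.32% of all windows); the first and second quartiles held none, against 2.26% and 4.58% of all windows, and of these members Il13ra2 was higher by edgeR's test before adjustment, at the 0.05 level. The members' median log2 fold changes were -0.01, -0.19, -0.39 and -0.07 from the least to the most open quartile, against 0.37, -0.27, -0.19 and 0.11 over all windows. The quartiles were cut on the same 6 libraries as the calls, and no test of the members against all windows was made.

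**Figure D2:**
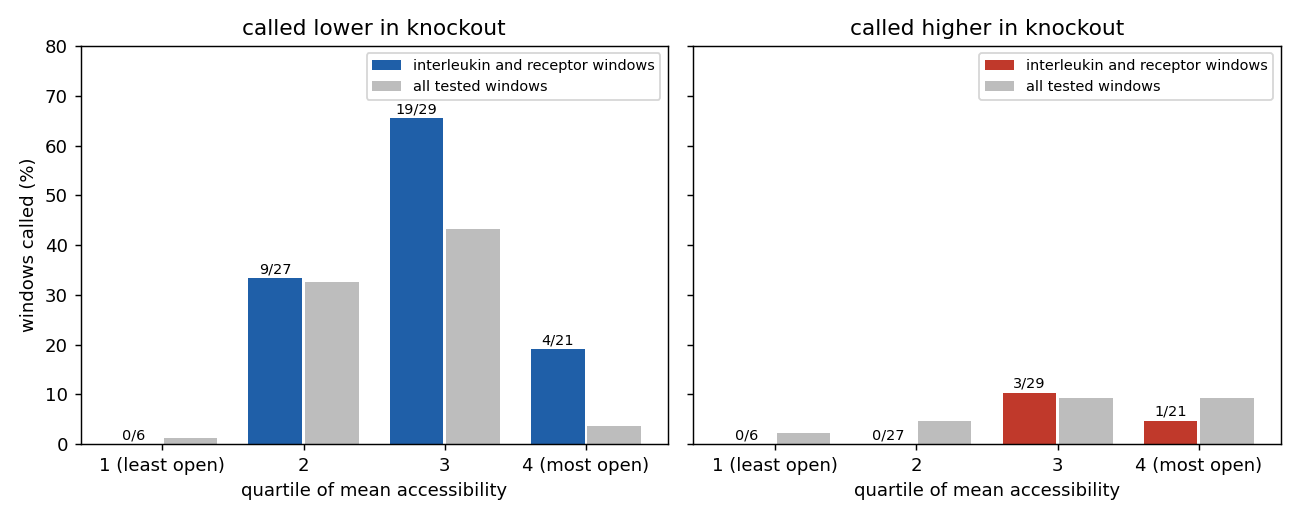
Percentage of windows called lower (left) and higher (right) in the knockout, by quartile of mean accessibility, for the members (coloured bars, with the count called of the count tested above each) and for all 24817 tested windows (grey bars). Calls of members concentrate in the third quartile, where 19 of 29 were lower and 3 higher.

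The promoters below belong to the members with the largest log2 fold changes in each direction whose windows held at least 100 counts on average and were not mostly shared, as far as the RefSeq table for GRCm38.p6, the assembly behind mm10, has an entry in the window. Each runs 5′ to 3′ on the gene's strand, from 250 bases before to 50 bases after the annotated start. Capitals mark a match to 1 of 3 motifs searched on both strands: GGG, any 2 bases and TTTCC for NF-kB, TTCNNNGAA for STAT factors and TGANTCA for AP-1. The 5 lower ones are Il33 at chr19:29924863-29925162 (plus strand), Il11 at chr7:4778092-4778391 (minus strand), Il20ra at chr10:19712337-19712636 (plus strand), Il9r at chr11:32200230-32200529 (minus strand) and Il12rb2 at chr6:67376139-67376438 (minus strand). The 2 higher ones are Il2ra at chr2:11642542-11642841 (plus strand) and Il1rl2 at chr1:40324339-40324638 (plus strand).
Il33: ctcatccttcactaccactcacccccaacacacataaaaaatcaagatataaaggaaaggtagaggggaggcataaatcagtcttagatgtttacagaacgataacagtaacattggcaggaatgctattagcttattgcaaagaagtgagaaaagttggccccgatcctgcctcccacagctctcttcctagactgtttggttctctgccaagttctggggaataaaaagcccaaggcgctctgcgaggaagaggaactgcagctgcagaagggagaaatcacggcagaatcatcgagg
Il11: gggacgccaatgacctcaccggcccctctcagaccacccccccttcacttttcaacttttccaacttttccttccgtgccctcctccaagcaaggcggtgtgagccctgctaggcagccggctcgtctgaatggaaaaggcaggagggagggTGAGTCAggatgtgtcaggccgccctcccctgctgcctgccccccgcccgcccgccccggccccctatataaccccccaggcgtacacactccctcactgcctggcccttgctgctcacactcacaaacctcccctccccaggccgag
Il20ra: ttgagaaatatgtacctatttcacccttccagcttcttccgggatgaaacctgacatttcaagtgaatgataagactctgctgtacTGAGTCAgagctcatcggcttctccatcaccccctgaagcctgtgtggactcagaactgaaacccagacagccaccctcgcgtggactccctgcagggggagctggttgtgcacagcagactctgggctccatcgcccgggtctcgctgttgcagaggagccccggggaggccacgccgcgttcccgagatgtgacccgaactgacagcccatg
Il9r: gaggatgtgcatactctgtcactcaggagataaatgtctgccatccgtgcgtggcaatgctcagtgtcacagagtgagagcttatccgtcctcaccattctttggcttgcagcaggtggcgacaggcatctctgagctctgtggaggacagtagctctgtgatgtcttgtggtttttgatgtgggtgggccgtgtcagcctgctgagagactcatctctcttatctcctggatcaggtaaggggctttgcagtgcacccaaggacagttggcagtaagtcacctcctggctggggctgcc
Il12rb2: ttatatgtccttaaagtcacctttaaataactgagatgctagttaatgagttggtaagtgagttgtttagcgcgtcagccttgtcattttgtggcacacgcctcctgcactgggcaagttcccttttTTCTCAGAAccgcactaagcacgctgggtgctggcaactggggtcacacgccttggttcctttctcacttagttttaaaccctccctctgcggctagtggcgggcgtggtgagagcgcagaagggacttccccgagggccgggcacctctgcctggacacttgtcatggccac
Il2ra: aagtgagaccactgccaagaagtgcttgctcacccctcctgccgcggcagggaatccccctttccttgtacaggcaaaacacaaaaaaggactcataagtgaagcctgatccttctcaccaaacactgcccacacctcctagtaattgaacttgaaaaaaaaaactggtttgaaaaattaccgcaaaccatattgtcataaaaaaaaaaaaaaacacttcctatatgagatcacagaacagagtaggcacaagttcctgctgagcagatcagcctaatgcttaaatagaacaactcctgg
Il1rl2: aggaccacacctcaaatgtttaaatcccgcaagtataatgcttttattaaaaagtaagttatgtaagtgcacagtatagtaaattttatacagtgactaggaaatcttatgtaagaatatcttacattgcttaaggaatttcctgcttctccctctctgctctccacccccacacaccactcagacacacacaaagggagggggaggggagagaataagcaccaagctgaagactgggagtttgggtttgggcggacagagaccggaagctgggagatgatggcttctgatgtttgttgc

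An AP-1 match stood 98 bases before the start of Il11 and 164 bases before that of Il20ra, and a STAT match 123 bases before that of Il12rb2; no motif overlapped another. These positions count from the start of the promoter entry that lies in the window. For Il11 and Il9r that is not the gene start named above as outside it. For Il20ra the entry starts 3000 bases into the window and the RefSeq gene start lies at 2086, so the match lies after that gene start. For Il12rb2 the entry starts at 2949 and the RefSeq gene start lies at 2844. The motif letters are absent from the other 4 stretches. The 2 higher promoters were 42.7% (Il2ra) and 43.7% (Il1rl2) G and C, and the 5 lower ones shown between 46.3% (Il33) and 65.0% (Il11). Over all 25 lower members with an entry, the directions were not apart in G and C. Il36rn, called lower, was also at 42.7%, and the lower members Il2 and Il4 lay below both higher promoters. Of 66 members with an entry, 13 held the AP-1 motif (19.7%), 8 the STAT motif (12.1%) and 5 the NF-kB motif (7.58%), against 7.23%, 7.88% and 1.61% of the 18000 promoters matched to any window. Among the 25 lower members with an entry, 3 held the AP-1, 4 the STAT and 1 the NF-kB motif, and among the 38 that did not pass, 10, 4 and 4. Member promoters were poorer in CpG than promoters at large, with a median of 4.5 CpG sites in 300 bases against 13.

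Ligands of the IL-1 family included the largest fall among the members. IL-33 is an alarmin stored in the nucleus of epithelial and stromal cells and released on damage. The Il33 window (chr19:29922114-29927114) held 2.29, 2.93 and 5.08 CPM in knockout libraries 1 to 3, against 10.9, 11.2 and 11.9 CPM in wildtype libraries 1 to 3 (log2 fold change -1.73, SE 0.179, adjusted p = 2.58e-20). The highest knockout library lay below the lowest wildtype library by a wide margin, and knockout library 3 was the highest of its group. The window of Il1rl1, the gene for its receptor chain ST2, fell too (5.44 ± 0.974 CPM in knockout and 8.52 ± 1.46 CPM in wildtype, SD, n = 3 each, log2 fold change -0.65, SE 0.176, adjusted p = 0.00139). That window does not hold the RefSeq gene start but holds another annotated start. Il1rap, the accessory chain shared by the IL-1, IL-33 and IL-36 receptors, fell to 42.3 ± 2.29 CPM, against 55.4 ± 5.01 CPM in wildtype (log2 fold change -0.39, adjusted p = 0.00286).

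The IL-36 cytokines are IL-1 relatives made mainly by skin and other barrier epithelia. Il36a (chr2:24212417-24217417) held 5.90, 6.39 and 8.93 CPM in knockout libraries 1 to 3, against 11.6, 11.8 and 14.9 CPM in wildtype libraries 1 to 3 (log2 fold change -0.85, SE 0.151, adjusted p = 1.79e-07). All 3 knockout libraries lay below all 3 wildtype libraries. The same separation held for Il36rn, the IL-36 receptor antagonist (log2 fold change -0.76, adjusted p = 0.000805), Il1f10, which encodes IL-38 (log2 fold change -0.60, adjusted p = 0.000758), and Il36g, whose sign turned with loess normalisation (log2 fold change -0.43, adjusted p = 0.0144). The IL-36 receptor gene went the other way: Il1rl2 (chr1:40321627-40326627) held 94.8, 78.2 and 71.0 CPM in knockout libraries 1 to 3, against 55.8, 66.5 and 53.0 CPM in wildtype libraries 1 to 3 (log2 fold change 0.48, SE 0.116, adjusted p = 0.000249). The groups did not overlap, and the spread within the knockout group was the wider.

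Most of the other members of the IL-1 family did not pass. Il1a, a cytokine of barrier epithelia, held 2.60 ± 0.493 CPM in knockout and 3.47 ± 0.275 CPM in wildtype (log2 fold change -0.42, adjusted p = 0.297), with the groups apart but at low counts. Il1b was below 2 CPM in both group means, with 55.6% of its window shared with an antisense transcript gene. The receptor antagonist gene Il1rn was open and close to equal (63.6 ± 4.29 CPM in knockout, 64.2 ± 6.38 CPM in wildtype; log2 fold change -0.01, adjusted p = 0.946), and the groups overlapped. Il18, a cytokine activated by inflammasomes, and Il36b had few counts (log2 fold change 0.05, adjusted p = 0.923 for Il18, log2 fold change 0.15, adjusted p = 0.763 for Il36b). Il18bp, whose product binds and blocks IL-18, fell to 91.2 ± 5.31 CPM, against 114 ± 3.68 CPM in wildtype (log2 fold change -0.32, adjusted p = 0.0322). Il1rapl1, a synaptic relative of the IL-1 receptors, missed the threshold (log2 fold change -0.81, adjusted p = 0.0533). Il1r1, Il1r2, Il18r1, Il18rap and Il1rapl2 did not pass either, with log2 fold changes between -0.57 (Il1r2) and 0.48 (Il18rap). In all, 5 of 10 ligand windows were lower and the others did not pass, and 2 of 9 receptor windows lower and 1 higher. The receptor share lower, 22.2%, was near the 20.2% of all tested windows, of which 6.36% were higher. With loess normalisation 1 of the 10 ligand windows, Il33, was lower. Il36g did not pass without knockout library 1 (adjusted p = 0.0915), knockout library 2 (0.0945) or wildtype library 3 (0.168), its adjusted p running from 0.000265 to 0.878 over the 16 alternatives. Il1rl1 did not pass without wildtype library 3 (adjusted p = 0.0981), its adjusted p running from 1.31e-06 to 0.317 over the 16 alternatives. Il1rap did not pass without wildtype library 1 (adjusted p = 0.0732), its adjusted p running from 3.69e-07 to 0.0732 over the 16 alternatives. Il18bp did not pass without knockout library 2 (adjusted p = 0.145), knockout library 3 (0.115) or wildtype library 1 (0.104), its adjusted p running from 2.2e-07 to 0.145 over the 16 alternatives.

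Cytokines that use the common gamma chain, together with IL-13, drive lymphocyte growth and type 2 responses. Il2, the T cell growth factor gene (chr3:37123954-37128954), held 1.43, 2.81 and 3.49 CPM in knockout libraries 1 to 3, against 7.48, 6.65 and 9.10 CPM in wildtype libraries 1 to 3 (log2 fold change -1.59, SE 0.214, adjusted p = 1.88e-12). Every knockout library was below every wildtype library, and knockout library 1 was the lowest. Il4, the cytokine gene of type 2 helper T cells, fell to 10.2 ± 0.657 CPM, against 13.8 ± 0.868 CPM in wildtype, with the sign turned under loess normalisation (log2 fold change -0.43, adjusted p = 0.00996), whereas its neighbour Il13 held 94.2 ± 11.6 CPM in knockout and 106 ± 2.58 CPM in wildtype (log2 fold change -0.18, adjusted p = 0.3).

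Of the stromal survival factors, Il7 was called and Il15 was not. Over the 16 alternatives, Il7 kept its call in 7 and Il15 passed as higher in 8. Il7 (chr3:7611427-7616427), the cytokine that sustains early thymocytes, held 16.1, 14.7 and 13.6 CPM in knockout libraries 1 to 3, against 14.4, 22.8 and 19.6 CPM in wildtype libraries 1 to 3 (log2 fold change -0.35, SE 0.126, adjusted p = 0.0245). The groups overlapped, since wildtype library 1 lay among the knockout libraries, the sign turned with loess normalisation, and 65.6% of the window was shared with a window without a symbol. Il15, whose product mTECs present to innate lymphocytes on the IL-15 receptor alpha chain, was higher in each knockout library but did not pass (139.8 ± 14.5 CPM in knockout, 117 ± 6.49 CPM in wildtype; log2 fold change 0.25, SE 0.123, adjusted p = 0.119). Il21 and Il9, T cell cytokines, were near 2 CPM in both groups and did not pass (log2 fold change -0.18, adjusted p = 0.758 for Il21, log2 fold change -0.07, adjusted p = 0.918 for Il9). Of 7 ligand windows, 3 were lower, against 20.2% of all tested windows, and the others did not pass.

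The receptor genes for IL-2 split by chain. Il2rb, the signalling beta chain shared by IL-2 and IL-15 (chr15:78493066-78498066), held 3.09, 6.15 and 3.91 CPM in knockout libraries 1 to 3, against 12.7, 9.27 and 11.6 CPM in wildtype libraries 1 to 3 (log2 fold change -1.35, SE 0.171, adjusted p = 5.47e-14). The groups stood apart, knockout library 2 being the highest of its group and wildtype library 2 the lowest of its own. Il2ra, the alpha chain CD25 of activated and regulatory T cells (chr2:11639792-11644792), held 79.4, 72.6 and 69.9 CPM in knockout libraries 1 to 3, against 37.6, 60.8 and 42.8 CPM in wildtype libraries 1 to 3 (log2 fold change 0.65, SE 0.114, adjusted p = 1.17e-07). All knockout libraries were above all wildtype libraries, wildtype library 2 lying nearest. The call was lost with library totals alone (adjusted p = 0.0687) and with upper-quartile factors (0.0539), in a range of 3.23e-17 to 0.0687 over the 16 alternatives. Il2rg, the common gamma chain itself, fell to 12.6 ± 1.55 CPM, against 16.2 ± 0.953 CPM in wildtype (log2 fold change -0.37, adjusted p = 0.0228), with 42.7% of its window shared and the sign turned under loess normalisation.

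Among the partner chains, Il9r (chr11:32198279-32203279) fell most in relation to its error: it held 18.7, 16.8 and 16.8 CPM in knockout libraries 1 to 3, against 44.5, 31.3 and 38.9 CPM in wildtype libraries 1 to 3 (log2 fold change -1.13, SE 0.116, adjusted p = 9.22e-21). The knockout libraries lay close together and well below the wildtype libraries; 17.3% of the window was shared with that of Snrnp25. Il21r, a receptor chain of lymphocytes (chr7:125600429-125605429), held 11.3, 10.6 and 12.7 CPM in knockout libraries 1 to 3, against 21.6, 19.3 and 19.0 CPM in wildtype libraries 1 to 3 (log2 fold change -0.79, SE 0.129, adjusted p = 1.14e-08). Its groups did not overlap either. In the same libraries, 5 markers of B cells, which carry this receptor, summed to 49.1 to 51.4 CPM in knockout and 108 to 109 CPM in wildtype, and their part in the value was not tested. Without Ebf1, the most open of them, the other 4 summed to 27.6 to 29.4 CPM in knockout and 43.4 to 45.9 CPM in wildtype, and 2 of the 5, Cd79a and Ms4a1, did not pass. Thymocyte markers summed higher in knockout, at 135 to 144 CPM against 112 to 124 CPM in wildtype. Markers of natural killer, innate lymphoid and mast cells summed lower, at 32.3 to 37.0 CPM against 42.3 to 47.0 CPM in wildtype. The genes for the chains through which IL-4 and IL-13 act on epithelium did not pass. Il4ra held 145 ± 10.7 CPM in knockout and 149 ± 4.10 CPM in wildtype (log2 fold change -0.04, adjusted p = 0.86). With loess normalisation Il4ra passed as lower (log2 fold change -0.15, adjusted p = 0.0246). Il13ra1 held 59.6 ± 3.93 CPM in knockout and 55.6 ± 1.97 CPM in wildtype (log2 fold change 0.10, adjusted p = 0.549). Il15ra (log2 fold change 0.19, adjusted p = 0.254), Il7r (log2 fold change 0.25, adjusted p = 0.104) and Il13ra2, the decoy receptor for IL-13 (log2 fold change 0.36, adjusted p = 0.0719), also missed the threshold.

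Of the 10 receptor windows, 4 were lower and 1 higher, against 20.2% and 6.36% of all tested windows. Without wildtype library 2 the higher count was 4, with Il7r (adjusted p = 0.00104, in a range of 0.00104 to 0.71 over the 16 alternatives) and Il15ra (0.0419, in a range of 0.0209 to 0.897) among them, and Il15 passed as well (0.0481, in a range of 0.000315 to 0.386). Without knockout library 3 it was 2. The ligand count of 3 lower windows was 1 without knockout library 2 and 1 without wildtype library 3. Il4 did not pass without knockout library 2 (adjusted p = 0.0928) or wildtype library 3 (0.0641), its adjusted p running from 3.93e-05 to 0.896 over the 16 alternatives. Il7 did not pass without knockout library 2 (adjusted p = 0.0919), knockout library 3 (0.135), wildtype library 2 (0.184) or wildtype library 3 (0.0831), its adjusted p running from 0.000169 to 0.816 over the 16 alternatives. Il2rg did not pass without knockout library 2 (adjusted p = 0.23) or wildtype library 1 (0.0918), its adjusted p running from 0.000151 to 0.707 over the 16 alternatives.

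For IL-3 and IL-5, growth factors of myeloid cells and eosinophils, none of the 4 windows passed. The lowest unadjusted p was 0.0528, for Il5ra, and DESeq2 called 0 and limma-voom 1. Other scalings made calls among the receptor windows: 1 was lower with library totals alone, and 1 was lower and 1 higher with upper-quartile factors and with loess normalisation. With no low-count filter and with replicates 2 and 3 only, 1 was lower, and keeping windows of 50 counts or more on average, 1 was lower and 1 higher. The ligand genes were near closed, with 4.15 ± 0.918 CPM in knockout and 4.74 ± 1.16 CPM in wildtype for Il3 (log2 fold change -0.19, adjusted p = 0.573). Il5 held 3.15 ± 0.453 CPM in knockout and 3.23 ± 0.584 CPM in wildtype (log2 fold change -0.03, adjusted p = 0.953). The receptor genes were more open, Il3ra with 69.8 ± 10.8 CPM in knockout and 79.2 ± 5.78 CPM in wildtype (log2 fold change -0.18, adjusted p = 0.261). Il5ra held 56.1 ± 4.60 CPM in knockout and 48.4 ± 5.74 CPM in wildtype (log2 fold change 0.22, adjusted p = 0.148). Il3ra was lower and Il5ra higher at the threshold without wildtype library 2, which made 1 receptor call in each direction; 1 receptor window was lower without knockout library 1 and 1 without wildtype library 3.

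Cytokines of the IL-6 and IL-12 families signal through gp130 and its relatives, and IL-12, IL-23 and IL-27 are dimers from dendritic cells and macrophages that direct helper T cells. Il11, a gp130 cytokine of stromal and epithelial cells (chr7:4776141-4781141), held 10.9, 11.3 and 12.3 CPM in knockout libraries 1 to 3, against 29.8, 23.3 and 27.5 CPM in wildtype libraries 1 to 3 (log2 fold change -1.23, SE 0.125, adjusted p = 4.7e-21). The knockout values lay within a narrow range, and the lowest wildtype library was well above them. Of the window, 24.0% was shared with that of Tmem190, which also passed as lower (log2 fold change -0.53, adjusted p = 0.0406). Il12a (chr3:68687644-68692644), the p35 subunit of IL-12, held 14.5, 13.4 and 13.8 CPM in knockout libraries 1 to 3, against 21.0, 19.8 and 21.6 CPM in wildtype libraries 1 to 3 (log2 fold change -0.58, SE 0.125, adjusted p = 2.9e-05). Its groups did not overlap. Il12b, the p40 subunit shared by IL-12 and IL-23 (log2 fold change -0.29, adjusted p = 0.0493), and Il27, the p28 subunit of IL-27 (log2 fold change -0.32, adjusted p = 0.0198), fell by less, Il12b with its sign turned under loess normalisation. Il23a, the p19 subunit of IL-23, did not pass (97.0 ± 10.7 CPM in knockout, 107 ± 6.47 CPM in wildtype; log2 fold change -0.14, adjusted p = 0.416). Neither Il6 (log2 fold change -0.03, adjusted p = 0.907) nor Il31 (log2 fold change 0.04, adjusted p = 0.961) passed, so that 4 of 7 ligand windows were lower, against 20.2% of all tested windows.

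Receptor genes of these families fell in 5 of 9 windows, against 20.2% of all tested windows. Il12rb2 (chr6:67374137-67379137), the IL-12 receptor chain that recruits STAT4, held 11.5, 10.2 and 9.97 CPM in knockout libraries 1 to 3, against 21.1, 16.2 and 17.5 CPM in wildtype libraries 1 to 3 (log2 fold change -0.80, SE 0.133, adjusted p = 2.1e-08). The groups stood apart, with wildtype library 1 the highest. Il12rb1, the chain shared with IL-23 (log2 fold change -0.37, adjusted p = 0.0142), Il27ra (log2 fold change -0.55, adjusted p = 2.41e-05, 50.2% of its window shared with that of Rln3) and Il31ra, the receptor chain for the itch cytokine IL-31 (log2 fold change -0.45, adjusted p = 0.0122), fell too, Il12rb1 and Il31ra with their sign turned under loess normalisation. Il11ra1 fell to 83.5 ± 6.44 CPM, against 107 ± 10.1 CPM in wildtype (log2 fold change -0.36, adjusted p = 0.0114), while its near-identical copy Il11ra2, where reads may be hard to assign, did not pass (log2 fold change 0.27, adjusted p = 0.448). The shared receptor gp130, encoded by Il6st, held 137 ± 13.9 CPM in knockout and 115 ± 8.19 CPM in wildtype (log2 fold change 0.25, adjusted p = 0.123). The IL-6 receptor chain gene Il6ra held 99.7 ± 13.7 CPM in knockout and 101 ± 3.89 CPM in wildtype (log2 fold change -0.02, adjusted p = 0.94), and Il23r 32.9 ± 3.12 CPM in knockout and 32.0 ± 4.06 CPM in wildtype (log2 fold change 0.04, adjusted p = 0.818). None of these 3 passed in the reported fit. Il6st passed as higher in 8 of the 16 alternatives, its adjusted p running from 0.000339 to 0.266.

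Many calls in these families rested on the full set of libraries. The count of lower ligand windows was 2 without knockout library 2, knockout library 3 or wildtype library 1, and that of receptor windows was 2 without knockout library 2 and 3 without wildtype library 3. Il12b did not pass without knockout library 2 (adjusted p = 0.174), knockout library 3 (0.215), wildtype library 1 (0.115) or wildtype library 3 (0.0566), its adjusted p running from 0.000688 to 0.843 over the 16 alternatives. Il27 did not pass without knockout library 2 (adjusted p = 0.134), knockout library 3 (0.0678) or wildtype library 1 (0.0887), its adjusted p running from 3.07e-07 to 0.134 over the 16 alternatives. Il12rb1 did not pass without knockout library 2 (adjusted p = 0.0943) or wildtype library 3 (0.0586), its adjusted p running from 0.000301 to 0.868 over the 16 alternatives. Il31ra did not pass without knockout library 2 (adjusted p = 0.0957) or wildtype library 3 (0.0996), its adjusted p running from 7.34e-05 to 0.935 over the 16 alternatives. Il11ra1 did not pass without knockout library 2 (adjusted p = 0.083), knockout library 3 (0.0675) or wildtype library 1 (0.17), its adjusted p running from 8.69e-08 to 0.17 over the 16 alternatives. Il23a passed as lower without knockout library 1 (adjusted p = 0.0113, in a range of 0.001 to 0.697 over the 16 alternatives).

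In the IL-10 family, the gene of the anti-inflammatory founder was higher, 2 of its 5 relatives were lower (Il19 and Il22) and the other 3 did not pass. Il10 (chr1:131016845-131021845) held 64.9, 51.2 and 50.1 CPM in knockout libraries 1 to 3, against 28.7, 35.9 and 30.3 CPM in wildtype libraries 1 to 3 (log2 fold change 0.81, SE 0.113, adjusted p = 1.17e-11). The lowest knockout library was above the highest wildtype library, and this was the largest gain among the members called higher. Il19 (chr1:130937241-130942241), a relative that acts on skin, held 1.09, 2.81 and 2.32 CPM in knockout libraries 1 to 3, against 5.02, 5.11 and 6.20 CPM in wildtype libraries 1 to 3 (log2 fold change -1.39, SE 0.255, adjusted p = 4.88e-07). Il22 (chr10:118201964-118206964), a cytokine of innate lymphoid and T cells that acts on epithelia, held 2.06, 2.63 and 3.24 CPM in knockout libraries 1 to 3, against 5.28, 5.56 and 6.14 CPM in wildtype libraries 1 to 3 (log2 fold change -1.10, SE 0.237, adjusted p = 2.88e-05). Both stood apart between the groups at levels of few counts. Il22b, a near-identical copy of Il22, did not pass (log2 fold change -0.03, adjusted p = 0.96), and since reads may not be assignable between the copies the Il22 value is uncertain. Il24 (log2 fold change -0.61, adjusted p = 0.111) and Il20 (log2 fold change 0.08, adjusted p = 0.91) did not pass. Over all tested windows, 20.2% were lower and 6.36% higher.

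The family's receptor genes were lower in 3 of 6 windows, against 20.2% of all tested windows. Il20ra, a chain through which IL-19, IL-20 and IL-24 act on epithelial cells (chr10:19709587-19714587), held 6.65, 7.17 and 7.46 CPM in knockout libraries 1 to 3, against 17.9, 14.8 and 14.9 CPM in wildtype libraries 1 to 3 (log2 fold change -1.16, SE 0.145, adjusted p = 2.07e-14). The knockout libraries were nearly equal to each other and lay far below the wildtype libraries. Il22ra1, the epithelial chain of the IL-22 receptor (chr4:135725159-135730159), held 11.7, 12.2 and 11.6 CPM in knockout libraries 1 to 3, against 17.5, 16.3 and 19.3 CPM in wildtype libraries 1 to 3 (log2 fold change -0.58, SE 0.131, adjusted p = 7.8e-05). Il10ra, the ligand-binding chain for IL-10 on leukocytes (chr9:45267146-45272146), held 43.4, 37.2 and 36.8 CPM in knockout libraries 1 to 3, against 58.5, 56.0 and 54.9 CPM in wildtype libraries 1 to 3 (log2 fold change -0.53, SE 0.112, adjusted p = 2.05e-05). In both cases the groups did not overlap. Il10rb, the chain shared by the receptors for IL-10, IL-22 and others, was higher in each knockout library without passing (147 ± 13.7 CPM in knockout, 129 ± 4.26 CPM in wildtype; log2 fold change 0.19, adjusted p = 0.287). Il20rb was lower in each without passing (log2 fold change -0.25, adjusted p = 0.112), and Il22ra2, a soluble decoy, did not pass (log2 fold change 0.11, adjusted p = 0.822).

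The IL-17 family recruits neutrophils and strengthens barrier defence. Of its 5 ligand windows 1 passed, and it was higher: Il17b held 61.2, 52.8 and 54.5 CPM in knockout libraries 1 to 3, against 48.1, 43.1 and 43.4 CPM in wildtype libraries 1 to 3 (log2 fold change 0.32, SE 0.112, adjusted p = 0.0174). The groups did not overlap, although the gain was the smallest among the 4 members called higher. Over all tested windows, 6.36% were higher. Il17c, an epithelial member (log2 fold change -0.08, adjusted p = 0.687), and Il17d (log2 fold change 0.10, adjusted p = 0.576) were open without passing, and the T cell cytokine genes Il17a (log2 fold change 0.83, adjusted p = 0.177) and Il17f (log2 fold change 0.41, adjusted p = 0.423) were near closed. Without knockout library 1, 3 ligand windows were higher and 1 lower.

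Receptor windows were lower in 3 of 5, against 20.2% of all tested windows, and the others did not pass. Il17rd (chr14:27036001-27041001) held 39.5, 37.7 and 35.2 CPM in knockout libraries 1 to 3, against 58.6, 49.3 and 49.7 CPM in wildtype libraries 1 to 3 (log2 fold change -0.49, SE 0.112, adjusted p = 9.85e-05), with no overlap of the groups. Il17re, the receptor chain for IL-17C (14.2 ± 0.868 CPM in knockout, 19.6 ± 2.02 CPM in wildtype; log2 fold change -0.47, adjusted p = 0.00118), fell as well. Il17rc, which pairs with IL-17RA for IL-17A and IL-17F (56.7 ± 7.08 CPM in knockout, 70.9 ± 5.57 CPM in wildtype; log2 fold change -0.32, adjusted p = 0.0208), also fell. Il17ra, the chain common to the family, did not pass (log2 fold change -0.07, adjusted p = 0.708). Il17rb, a marker of thymic tuft cells, held 4.01 ± 1.04 CPM in knockout and 4.32 ± 0.640 CPM in wildtype without passing (log2 fold change -0.10, adjusted p = 0.797), with 82.1% of its window shared with that of Chdh. Il17rc did not pass without knockout library 2 (adjusted p = 0.256), knockout library 3 (0.0528) or wildtype library 1 (0.197), its adjusted p running from 1.55e-08 to 0.256 over the 16 alternatives.

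The remaining members belong to no interleukin pathway above or only share the name. Il4i1, an amino acid oxidase gene of antigen-presenting cells and the most open member per length, held 188 ± 16.2 CPM in knockout and 224 ± 3.55 CPM in wildtype and did not pass, though every knockout library was lower (log2 fold change -0.26, adjusted p = 0.125). Il34, a ligand of the CSF1 receptor, missed the threshold (log2 fold change -0.31, adjusted p = 0.051), and Il16, a T cell chemoattractant, and Il1bos, a transcript antisense to Il1b, did not pass (log2 fold change 0.06, adjusted p = 0.895 for Il16, log2 fold change -0.05, adjusted p = 0.958 for Il1bos). Without wildtype library 2, 2 of these 4 tested windows were lower (Il4i1 and Il34), and without knockout library 1 or wildtype library 3, 1 was.

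**Figure D3:**
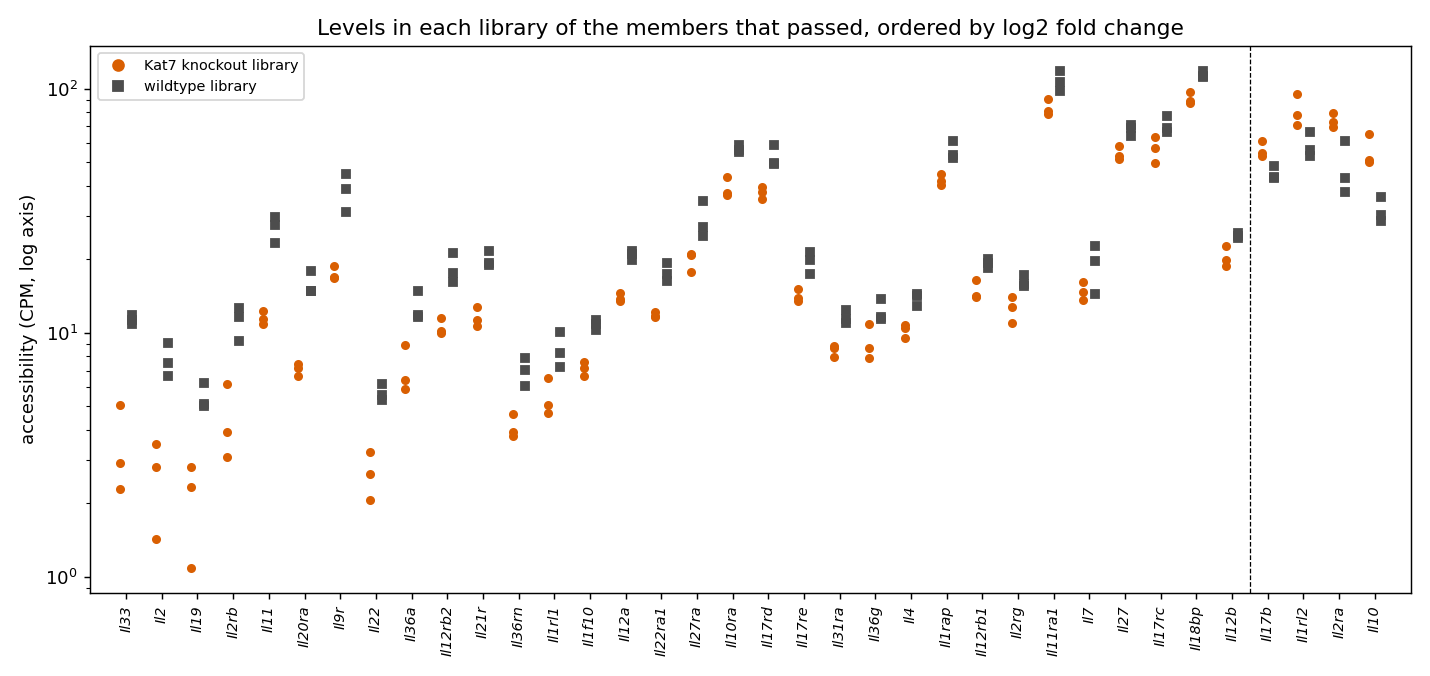
Accessibility (CPM, log axis) in each library of the 36 members that passed, ordered by log2 fold change from the largest fall (left) to the largest gain (right of the dashed line, 4 members). Circles are the 3 knockout and squares the 3 wildtype libraries; Il7 is the member whose groups overlap.

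Per length, the most open members in wildtype were Il4i1, with 37.5 CPM per kb in knockout and 44.9 in wildtype, and Il4ra, with 28.9 in knockout and 29.7 in wildtype. Il17c followed with 27.1 in knockout and 28.6 in wildtype. Il10rb (29.4 CPM per kb in knockout and 25.8 in wildtype), Il15 (27.9 in knockout and 23.5 in wildtype) and Il6st (27.5 in knockout and 23.1 in wildtype) came next. None of these 6 passed the test. At the other end, Il4i1b, which was not tested, had 0.0158 CPM per kb in knockout and 0.0156 in wildtype. The least open tested members in wildtype were Il1bos, with 0.136 in knockout and 0.142 in wildtype, Il17a, with 0.351 in knockout and 0.199 in wildtype, and Il1b, with 0.273 in knockout and 0.286 in wildtype. The median member held 12.6 CPM per window in knockout and 18.3 CPM in wildtype, against 8.05 CPM in knockout and 11.9 CPM in wildtype over all tested windows.

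Several members lie side by side, and neighbours did not always share a call. On chromosome 2, 4 adjacent windows, Il36g, Il36a, Il36rn and Il1f10, were all lower over 109.721 kb (chr2:24183476-24293196), while their outer neighbours in the block, Il36b and Il1rn, did not pass. On chromosome 1, Il1rl2 was higher and the next window, Il1rl1, 110.021 kb on, was lower, in a row of 6 IL-1 receptor genes of which the other 4 did not pass (chr1:40081768-40517362). Also on chromosome 1, Il19 was lower and the next window, Il10, 74.603 kb on, was higher, with Il24 and Il20 not passing (chr1:130885411-131021845).

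Among pairs of neighbours, Il17re and Il17rc on chromosome 6, with 7.97 kb between their windows, were both lower. By contrast Il21r was lower and Il4ra, next to it, did not pass. The same held for Il12rb2 beside Il23r, Il2 beside Il21 and Il4 in the type 2 cytokine cluster beside Il13, and Il2ra was higher where Il15ra beside it did not pass. Of 40 tested windows next to a lower member and not members themselves, 9 were lower (22.5%) and 2 higher (5.0%), against 20.2% and 6.36% of all tested windows. Among the lower ones were the windows next to Il9r (Gm12108, log2 fold change -1.21, adjusted p = 9.17e-19), Il20ra (Slc35d3, -0.72, adjusted p = 3.22e-09) and Il21r (Katnip, -1.04, adjusted p = 6.96e-11), and the higher ones were Ifnlr1 beside Il22ra1 (0.54, adjusted p = 1.54e-05) and Numa1 beside Il18bp (0.36, adjusted p = 0.0154). Neighbouring windows are not independent replicates.

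**Figure D4:**
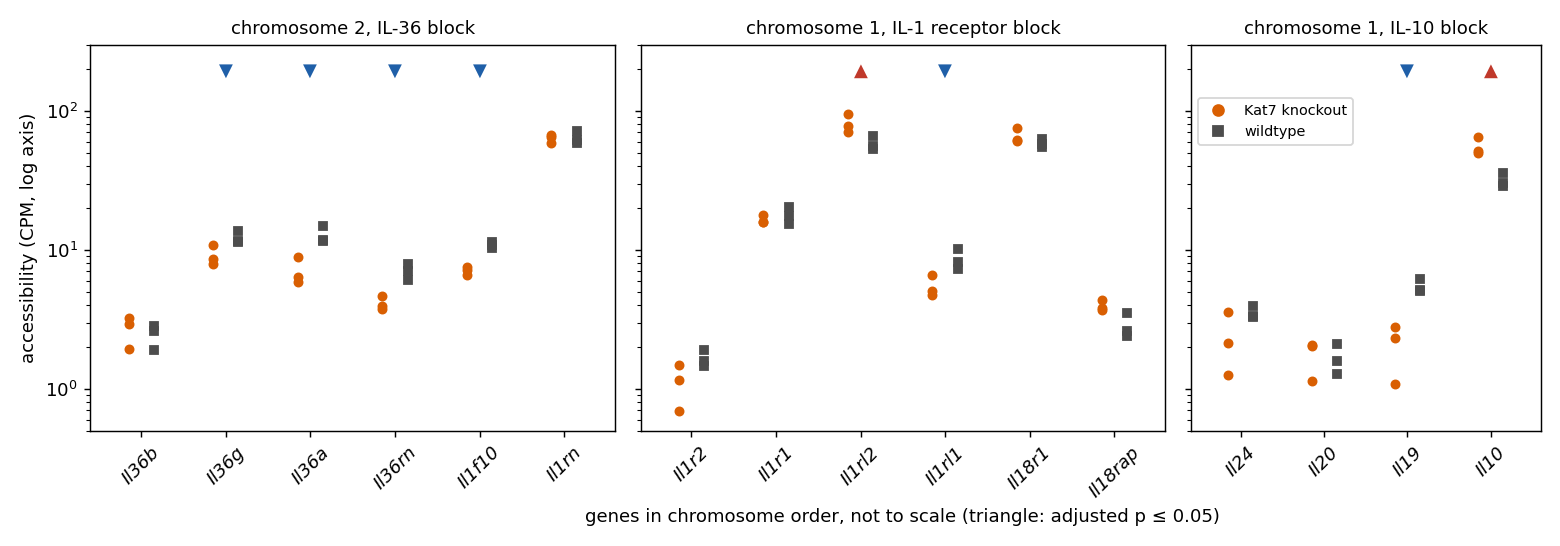
Accessibility (CPM, log axis) in each knockout (circles) and wildtype (squares) library for 3 blocks of neighbouring members, in chromosome order and not to scale. Triangles mark members that passed: 4 adjacent falls in the IL-36 block, and a fall beside a gain in each of the IL-1 receptor and IL-10 blocks.

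Genes of interleukin signalling without an Il symbol comprised 12 shared subunits and related cytokines and 33 kinases, STAT factors, inhibitors and adaptors inside the cell. Of the 12, all tested, 4 were lower (33.3%), and of 29 tested genes inside the cell 1 was lower (3.45%), against 20.2% of all tested windows. None of either kind was higher, against 6.36% of all tested windows. Most of the tested genes inside the cell lay in the most open quartile, where 3.72% of all windows were lower and 9.32% higher. Over both kinds, 41 were tested and 5 were lower, with a median log2 fold change of 0.10, against 0.04 over all tested windows; by the unadjusted test at 0.05, 5 were lower and 3 higher (Socs5, Traf6 and Tab2). DESeq2 called 3 lower and 5 higher, and limma-voom 7 in each direction. Osm, the gp130 cytokine oncostatin M, held 6.13, 6.87 and 6.36 CPM in knockout libraries 1 to 3, against 14.1, 13.4 and 15.8 CPM in wildtype libraries 1 to 3 (log2 fold change -1.16, SE 0.150, adjusted p = 1.76e-13), with the groups well apart. Ebi3, the partner subunit of IL-27 (17.5 ± 2.07 CPM in knockout, 28.5 ± 2.36 CPM in wildtype; log2 fold change -0.71, adjusted p = 3.04e-08), fell. Clcf1, another gp130 cytokine (32.2 ± 0.781 CPM in knockout, 50.8 ± 3.23 CPM in wildtype; log2 fold change -0.66, adjusted p = 6.04e-08), fell too, as did Stat4, the factor below the IL-12 receptor (log2 fold change -0.38, adjusted p = 0.0116). Csf2rb2, the mouse receptor chain for IL-3, fell (log2 fold change -0.37, adjusted p = 0.00559), but its near-identical copy Csf2rb did not pass (log2 fold change -0.05, adjusted p = 0.794) and the split of reads between them is uncertain.

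Kinases, most STAT factors, inhibitors and adaptors did not pass. Jak2 held 206 ± 26.3 CPM in knockout and 177 ± 6.04 CPM in wildtype (log2 fold change 0.22, adjusted p = 0.2), Jak1 134 ± 20.5 CPM in knockout and 125 ± 8.57 CPM in wildtype (log2 fold change 0.10, adjusted p = 0.607). Stat3, the factor below gp130 and the IL-10 receptor, held 307 ± 39.3 CPM in knockout and 281 ± 9.45 CPM in wildtype (log2 fold change 0.13, adjusted p = 0.505). Neither Stat6, which IL-4 and IL-13 activate (log2 fold change 0.22, adjusted p = 0.207), nor Stat5a (log2 fold change -0.02, adjusted p = 0.941) or Stat5b (log2 fold change 0.11, adjusted p = 0.536) passed. Of the feedback inhibitors, Socs1 held 371 ± 46.7 CPM in knockout and 316 ± 8.41 CPM in wildtype (log2 fold change 0.23, adjusted p = 0.194), and Socs3 did not pass either (log2 fold change 0.15, adjusted p = 0.412). Myd88, Irak4, Socs2 and Socs4 were below the filter, with most of their windows shared. The direction of this list depended on the scaling: library totals alone gave 6 lower and 12 higher, upper-quartile factors 5 and 13, and loess normalisation 5 and 10. Without knockout library 2, 3 were lower, Csf2rb2 and Stat4 having lost the call (adjusted p = 0.14, in a range of 1.55e-10 to 0.14 over the 16 alternatives, and 0.143, in a range of 1.42e-05 to 0.95). Without knockout library 1, knockout library 3 or wildtype library 2, 1 was higher.

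Since many members are genes of lymphocytes and other cells that may be among the isolated cells, the markers of those cells stand beside them. Of 5 B cell markers, 3 were lower (Cd79b, -0.86; Pax5, -0.68; Ebf1, -1.56, all log2 fold changes), and the list had the sums given above. Of 12 thymocyte markers, 10 were tested and 3 were higher (Cd4, 0.73; Cd8a, 0.86; Themis, 1.16), with sums of 135 to 144 CPM in knockout against 112 to 124 CPM in wildtype. Without Bcl11b, the most open of them, the other 11 summed to 46.8 to 53.3 CPM in knockout against 38.9 to 42.3 CPM in wildtype. The 5 markers of all blood cells had 2 higher (Ptprc, 0.89; Cd53, 0.74) and 1 lower (Coro1a, -1.02), with sums of 134 to 174 CPM in knockout against 174 to 190 CPM in wildtype. Cd52, which did not pass, held most of that sum. The other 4 markers summed to 22.3 to 26.5 CPM in knockout against 29.0 to 39.7 CPM in wildtype. All knockout libraries were above all wildtype libraries for Ptprc, Cd53 and Cd48, and below them for Coro1a.

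Of 10 markers of myeloid and dendritic cells, 3 were lower (Csf1r, Lyz2 and Flt3) and 1 higher (Zbtb46), with sums of 204 to 248 CPM in knockout against 197 to 202 CPM in wildtype. Zbtb46 alone held most of that sum, and the other 9 markers summed to 51.2 to 53.3 CPM in knockout against 62.1 to 64.5 CPM in wildtype. Of 7 markers of natural killer, innate lymphoid and mast cells, 1 was lower (Eomes), and the sums were 32.3 to 37.0 CPM in knockout against 42.3 to 47.0 CPM in wildtype, or 9.86 to 17.1 CPM in knockout against 9.99 to 13.0 CPM in wildtype without Eomes. Mesenchymal markers were lower in 3 and higher in 2 of 7, with 110 to 111 CPM in knockout against 127 to 134 CPM in wildtype, and endothelial markers lower in 2 and higher in 1 of 6, with 34.4 to 38.5 CPM in knockout against 42.5 to 45.5 CPM in wildtype. Beside these counts stand the 20.2% lower and 6.36% higher of all tested windows, and the shares by quartile given above. No marker of any list was at 0 in all libraries. Per length, the median marker had 2.13 CPM per kb in knockout and 3.63 in wildtype for B cells, against 24.9 in knockout and 25.7 in wildtype for mTECs. Whether such cells have a part in the values of Il21r, Il2rb, Il10ra or other leukocyte genes was not tested.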

How the data were processed

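The authors deposited raw counts, 1 value per gene window and library, for 6 ATAC-seq libraries, made with featureCounts on mm10 per the submitters' processing notes, from 75-base paired reads per the design text. The sources used here name no aligner, duplicate handling or transposase shift, nor whether fragments or ends were counted. Symbols came from the file headers' annotation columns; 1280 windows had none.

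Windows were filtered with filterByExpr, leaving 24817, scaled with TMM and tested with edgeR 4.0.16 (robust glmQLFit and glmQLFTest, R 4.3.3) without a replicate block, with Benjamini-Hochberg adjustment at 0.05; SE is the log2 fold change divided by the root of F. The scripts were tested on simulated data. CPM means are ± SD (n = 3). The biological coefficient of variation was 10.9%. The 16 alternatives changed the scaling, the filter, the tool (DESeq2 1.42.0, limma 3.58.1) or the libraries; 15 were planned, and keeping replicates 2 and 3 only was chosen after seeing the data.

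Members, role lists, the 45 signalling genes, marker lists and the rule for named genes (every member called and 18 others always named; the 6 largest signalling calls and 9 named genes) were chosen with earlier results of these data known, and members named beyond it were chosen after their values were seen. The role of Il1bos was added after the files were read. RefSeq supplied gene starts and promoters, the same build as mm10. A marker gene fixed for 1 list is not reported here.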

Additional observations from a re-analysis of the deposited data

How the results depend on the processing

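Of the 36 members called, 15 kept their call and direction under all 16 alternatives. The number lower was 32 with all libraries and 21 to 38 when a library was left out, and lay between 23 (DESeq2) and 42 (limma-voom) otherwise. The number higher was 4, and 4 to 9 when a library was left out, 6 with library totals only, with DESeq2 and with replicates 2 and 3 only, 9 with upper-quartile factors and with limma-voom, 10 keeping windows of 50 counts or more on average and 12 with loess normalisation. The members' median log2 fold change of -0.18 was -0.28 to -0.21 when a library was left out, -0.13 with DESeq2 size factors, with DESeq2 and with loess, -0.22 with no low-count filter, -0.25 with limma-voom, and -0.27 keeping windows of 50 counts or more and with replicates 2 and 3 only. Signalling genes called higher numbered 0, and 0 to 1 when a library was left out, 1 with no filter, 5 with DESeq2 and with replicates 2 and 3 only, 7 with limma-voom, 10 with loess, 12 with library totals only, 13 with upper-quartile factors and 15 keeping windows of 50 counts or more; those called lower numbered 5, and 3 with DESeq2 and 3 to 7 when a library was left out. The causes were not tested.

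Reversed log2 fold changes with loess were 0.028 for Il12b and Il12rb1, 0.033 for Il36g, 0.024 for Il4, 0.016 for Il31ra, 0.053 for Il7, 0.064 for Il2rg, 0.23 for Il17rb, 0.011 for Stat4 and -0.014 for Jak1. With DESeq2 size factors and with DESeq2 they were 0.037 for Il6ra, 0.036 for Stat5a and 0.015 for Il4ra, and keeping windows of 50 counts or more, 0.0055 for Il6ra and 0.0062 for Stat5a. With replicates 2 and 3 only, Stat5b reversed to -0.000218. When a library was left out, uncalled genes near 0 changed sign, with these ranges: -0.14 to 0.061 for Il6ra, -0.10 to 0.0071 for Il4ra, -0.33 to 0.052 for Il17rb, -0.17 to 0.22 for Il18, -0.11 to 0.049 for Stat5a and -0.041 to 0.17 for Jak1.

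The groups share replicate numbers, but the labels do not say that a number marks a shared litter, batch or day, so no block was used. Same-numbered deviations correlated at 0.374, 0.0284 and 0.389. Knockout library 2 correlated best with wildtype library 3 (0.308), and every other library with its own number. Whether the numbers pair the samples was not tested. With a replicate block, 37 members were lower and 7 higher, and 4 signalling genes higher. Counts were few in the least open members: 6 of them were in the quartile with the fewest counts, where none passed. Of all windows in that quartile, 1.35% were lower and 2.26% higher. Whether counting depth limited the calls there was not tested.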
